A study of Homo sapiens with 11 samples.

Results

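The JAK-STAT and IRF signalling factors described here are 9 genes: the kinases JAK1 and TYK2, the transcription factors STAT2, STAT3, IRF1, IRF3, IRF7 and IRF9, and the inhibitor SOCS1. They were picked by symbol from a list of pathway components, and all 9 were found among the 58699 genes of the total RNA table. The cells were HCT116, a colorectal cancer line of human origin. All groups received an siRNA, either against luciferase as the control (siLuc) or against Staufen1 (siStau1), a protein that binds double-stranded RNA, and either the solvent DMSO or decitabine (DAC, 500 nM for 5 days), a nucleoside that lowers DNA methylation. Total RNA was thus read in 4 groups with 2 libraries apiece, named siLuc DMSO and siLuc DAC for the control and siStau1 DMSO and siStau1 DAC for the knockdown. Where 4 levels are listed below without names, they follow this order. The title of the series is about immunity to double-stranded RNA that endogenous retroviruses yield.

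The pathway runs from the cell surface to the nucleus. Receptor-bound kinases such as JAK1 and TYK2 phosphorylate STAT proteins when interferon or another cytokine binds, and STAT2 and IRF9 are subunits of ISGF3, the complex that switches on interferon-stimulated genes. IRF3 and IRF7 act upstream of interferon, since sensors of foreign or double-stranded RNA activate them and they then turn on interferon genes. IRF1 drives genes of antigen presentation, and SOCS1 is a feedback protein that binds and blocks the kinases.

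The deposited values are FPKM, fragments scaled to transcript length and to the fragments mapped. Each gene has 1 value per group and none per library, so no SD, no test of the spread between libraries and no replicate check can be given here, and the depth behind each value is unknown. A gene is said to have risen or fallen only where the authors' deposited table gives it a q-value, a p-value adjusted over all 102180 tests of that table, under 0.05. The labels do not say whether the libraries of a group came from separate cultures. The spread between libraries that enters these p-values may therefore be technical. Ratios given on the log2 scale were computed from FPKM + 0.1, which understates the change of low genes.

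STAU1 itself, the targeted gene, stood at 35.5 and 33.7 FPKM in the control without and with DAC and at 29.98 and 27.1 in the knockdown, lower in both siStau1 groups by a small margin. No test of that margin is given here, so the word knockdown names the siRNA used and not a measured loss of Staufen1. The epithelial markers EPCAM, KRT8, KRT18 and KRT19 lay between 117 and 3469 FPKM over the 4 groups. With DAC, EPCAM was lower and the keratins KRT8, KRT18 and KRT19 were higher in both arms. CDH1, a further epithelial marker, stood at 14.3, 26.5, 16.2 and 25.9 FPKM. The intestinal markers CDX1, VIL1 and LGALS4 did not exceed 1.495 FPKM in any group. CDX2, a further intestinal marker, stood at 7.31, 7.11, 2.76 and 7.47 FPKM. Summed markers of leukocytes were 1.70 and 0.744 FPKM in siLuc DMSO and siStau1 DMSO against 19.2 and 9.20 in siLuc DAC and siStau1 DAC, most of it CD68, with the pan-leukocyte marker PTPRC at 0.820 or less. Summed fibroblast markers ranged from 1.09 to 12.5 FPKM and summed endothelial markers from 0.147 to 1.60, both higher in the DAC groups. The part of these markers in the differences below was not tested. Fewer cells expressing a gene and less RNA of it per cell cannot be told apart in such bulk samples.

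In the control cells without DAC, IRF9 was the highest of the 9 genes at 62.1 FPKM, above 92.5% of protein-coding genes. JAK1, STAT2, IRF1, IRF3 and STAT3 lay close together, between 18.2 and 23.4 FPKM. IRF7 and TYK2 followed with 11.8 and 11.2, and SOCS1 was the lowest at 0.493. In siLuc DAC the order was IRF7 (78.5), IRF9 (78.1), IRF3 (65.3), IRF1 (55.1), STAT2 (52.8), STAT3 (34.8), TYK2 (29.6), JAK1 (23.2) and SOCS1 (4.11). IRF7, the seventh in siLuc DMSO, was the first here, and JAK1 the eighth in place of the second. In siStau1 DMSO the highest were IRF9 (30.2) and JAK1 (26.1), and in siStau1 DAC they were IRF9 (61.7) and IRF3 (41.9). With 1 value per group, it cannot be said which neighbours in these orders differ beyond their spread. The median level of the 9 genes was 18.8 FPKM without and 52.8 with DAC in the control, and 13.3 and 32.1 in the knockdown.

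**Figure D1:**
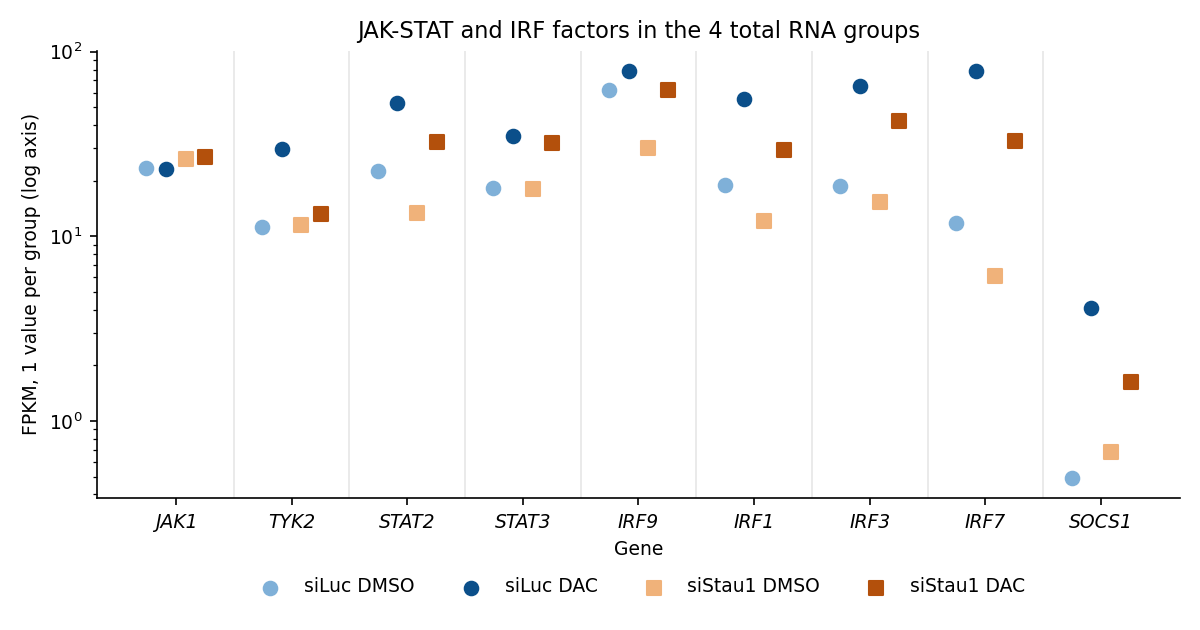
FPKM (log axis) of the 9 genes in the control (circles) and the knockdown (squares), each with DMSO (light) and with DAC (dark), with 1 point per gene and group and no error bars because the table holds 1 value per group. IRF7 spans 6.11 to 78.5 FPKM, the widest range of the 9, while JAK1 stays between 23.2 and 26.9.

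The promoter windows of the genes, 300 bases from 250 before to 50 after each RefSeq start on GRCh38.p14, were read for the letters of the DNA elements that these factors are known to bind. The first was an ISRE core, GAAANNGAAA, the element of ISGF3 and the IRFs, and the second a GAS core, TTCNNNGAA, the element of STAT dimers. Both were sought on both strands, and the patterns do not overlap in the matches found. Windows were found for 7 of the 9 genes, all but IRF3 and IRF7. The ISRE core stood in SOCS1 and the GAS core in IRF1 and IRF9, against 3.57% and 7.66% of all 35116 windows. The 4 genes below are shown because they cover the 3 matches and STAT2, the gene that rose in both DAC comparisons and held neither pattern. Capitals mark the matched core, and each sequence runs 5′ to 3′ on the gene's own strand. The part shown ends before the annotated gene begins, except for IRF9, of which only the surrounding 30 bases are printed. Those 30 bases lie before the RefSeq start but inside the annotated IRF9 gene, which begins at 24161053.
IRF1 chr5:132490799-132491023 minus strand: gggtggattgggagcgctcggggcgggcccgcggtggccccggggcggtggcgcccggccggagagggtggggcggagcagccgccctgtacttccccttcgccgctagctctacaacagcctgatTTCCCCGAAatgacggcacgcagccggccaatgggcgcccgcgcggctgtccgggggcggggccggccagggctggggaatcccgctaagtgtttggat
SOCS1 chr16:11256205-11256454 minus strand: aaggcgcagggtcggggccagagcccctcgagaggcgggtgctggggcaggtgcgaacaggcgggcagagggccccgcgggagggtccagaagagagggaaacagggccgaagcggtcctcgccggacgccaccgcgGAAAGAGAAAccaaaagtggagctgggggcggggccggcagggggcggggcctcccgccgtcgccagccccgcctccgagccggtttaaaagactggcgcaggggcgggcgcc
IRF9 chr14:24161192-24161221 plus strand: accacgtgatTTCTGGGAAaaggccctccc
STAT2 chr12:56360156-56360357 minus strand: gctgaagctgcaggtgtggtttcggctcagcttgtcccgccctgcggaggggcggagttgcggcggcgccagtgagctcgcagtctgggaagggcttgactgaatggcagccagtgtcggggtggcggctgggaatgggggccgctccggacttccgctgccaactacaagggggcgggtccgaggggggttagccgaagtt
In IRF1 the match TTCCCCGAA lay 124 to 116 bases before the RefSeq start, in IRF9 the match TTCTGGGAA lay 63 to 55 bases before it, and in SOCS1 the match GAAAGAGAAA lay 113 to 104 bases before it. A match is a description of letters and not a binding site, and its absence says only that these letters are not in the window. The windows also differed in CG dinucleotides, the pairs on which DNA methylation sits. IRF1 held 36, SOCS1 33, STAT2 25, TYK2 24, STAT3 23 and IRF9 7, against a median of 14 over all windows. JAK1, with 3 windows, held 43, 9 and 15. DNA methylation was not measured in these files.

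DAC was first set against DMSO in the siLuc cells, which asks how the drug alone moved the factors. IRF7, IRF3 and STAT2 rose, and no member fell. The authors' deposited table thus calls 3 of the 9 genes, where it calls 13.5% of the 17504 genes tested in either direction and 8.71% as higher. Over the 9 genes the log2 ratios had a median of 1.39, against 0.23 over all genes tested. With the same p-values adjusted within this comparison alone, 6 of the 9 genes would be called, the other 3 being IRF1, STAT3 and TYK2 at q-values of 0.0350, 0.0352 and 0.0430.

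Of the kinases, JAK1, which serves most cytokine receptors, stood at 23.4 FPKM in siLuc DMSO and 23.2 in siLuc DAC. It lies on chromosome 1 at 64833229-64966504, minus strand. Its log2 ratio was -0.01, the smallest shift of the 9, with q = 0.991 in the authors' deposited table. TYK2, the partner kinase at the type I interferon receptor, lies on chromosome 19 at 10350529-10380676, minus strand. It stood at 11.2 FPKM in siLuc DMSO and 29.6 in siLuc DAC, 2.62 times as high, yet the authors' deposited table gives q = 0.0761 and makes no call.

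STAT2, the subunit that carries the activating domain of ISGF3, rose from 22.6 to 52.8 FPKM. It lies on chromosome 12 at 56341597-56360155, minus strand. Its log2 ratio of 1.22 had q = 0.0142 in the authors' deposited table. STAT3, the main factor of the interleukin-6 family of cytokines, lies on chromosome 17 at 42313324-42388568, minus strand. It stood at 18.2 and 34.8 FPKM, a log2 ratio of 0.93 with q = 0.0626 in the authors' deposited table and no call. IRF9, the DNA-binding subunit of ISGF3, stood at 62.1 and 78.1 FPKM on chromosome 14 at 24161053-24166565, plus strand. Its log2 ratio was 0.33, with q = 0.895 in the authors' deposited table, so of the ISGF3 subunits among the 9 genes STAT2 was called and IRF9 was not. The difference between those genes was not tested.

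IRF7, the factor of the later, amplifying wave of interferon synthesis, showed the largest called rise of the 9. It lies on chromosome 11 at 612553-615999, minus strand, and went from 11.8 to 78.5 FPKM. That is a log2 ratio of 2.72, or 6.61-fold, with q = 0.00162 in the authors' deposited table, the smallest q it holds. IRF3, the factor present before infection that starts interferon synthesis, lies on chromosome 19 at 49659569-49665875, minus strand. It rose from 18.8 to 65.3 FPKM, a log2 ratio of 1.79 and also q = 0.00162 in the authors' deposited table. IRF1 lies on chromosome 5 at 132481609-132490798, minus strand. It stood at 19.0 and 55.1 FPKM, and its log2 ratio of 1.53 had q = 0.0622 in the authors' deposited table, just outside the limit.

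SOCS1, the feedback inhibitor, was not called. It lies on chromosome 16 at 11254405-11256200, minus strand, and stood at 0.493 FPKM in siLuc DMSO and 4.11 in siLuc DAC. The log2 ratio was 2.83, with q = 0.442 in the authors' deposited table. With a pseudocount of 1 it was 1.77, below the 2.64 of IRF7. Its level without DAC was the only one of the 9 below 1 FPKM.

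The same drug comparison in the siStau1 cells asks how the factors moved in cells given the siRNA against Staufen1. STAT2 and IRF7 rose there too, and no member fell. The authors' deposited table calls these 2 of the 9 genes, where it calls 7.46% of the 16979 genes tested in either direction and 4.56% as higher. Over the 9 genes the log2 ratios had a median of 1.15, against 0.11 over all genes tested.

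STAT2 went from 13.3 FPKM in siStau1 DMSO to 32.2 in siStau1 DAC, a log2 ratio of 1.27 with q = 0.0142 in the authors' deposited table. Its rise was thus of nearly the same size in both arms, from a lower start in siStau1. IRF7 went from 6.11 to 32.9 FPKM, a log2 ratio of 2.41 with q = 0.0332 in the authors' deposited table. IRF3 stood at 15.3 and 41.9 FPKM, and its log2 ratio of 1.44 had q = 0.325 in the authors' deposited table. IRF1 stood at 12.1 and 29.3 FPKM, a log2 ratio of 1.27 with q = 0.406 in the authors' deposited table. The deposited levels of these IRF genes give ratios below those in siLuc. Centred on genes of like GC content, the ratio of IRF7 was 0.03 above that in siLuc, and for IRF3 and IRF1 the difference from siLuc was -0.19 and -0.17.

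IRF9 was 30.2 FPKM in siStau1 DMSO and 61.7 in siStau1 DAC, and its log2 ratio of 1.03 had q = 0.626 in the authors' deposited table. STAT3 was 18.1 and 32.1 FPKM, a log2 ratio of 0.82 without a call. JAK1 was again level, at 26.1 and 26.9 FPKM. TYK2 stood at 11.6 and 13.1 FPKM, a log2 ratio of 0.18, and SOCS1 at 0.676 and 1.62, a log2 ratio of 1.15. The authors' deposited table gives q = 0.925 for TYK2 and 0.808 for SOCS1.

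Set side by side, the DAC ratio of the knockdown less that of the control had a median of -0.26 over the 9 genes, against -0.016 over the 15956 genes tested in both arms. Centred within bins of GC content, the median difference was -0.054. On the log2 scale the difference was -1.67 for SOCS1, -1.20 for TYK2 and 0.70 for IRF9, and between -0.35 and 0.05 for the other members. That of SOCS1 rests on levels below 1 FPKM without DAC and was -1.13 with a pseudocount of 1, where TYK2 had -1.15. TYK2 stood at 29.6 FPKM in siLuc DAC and between 11.2 and 13.1 in the other groups. None of these differences has a test, because the table holds no value per library. A call in 1 arm only, as for IRF3, does not show that the arms differ.

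**Figure D2:**
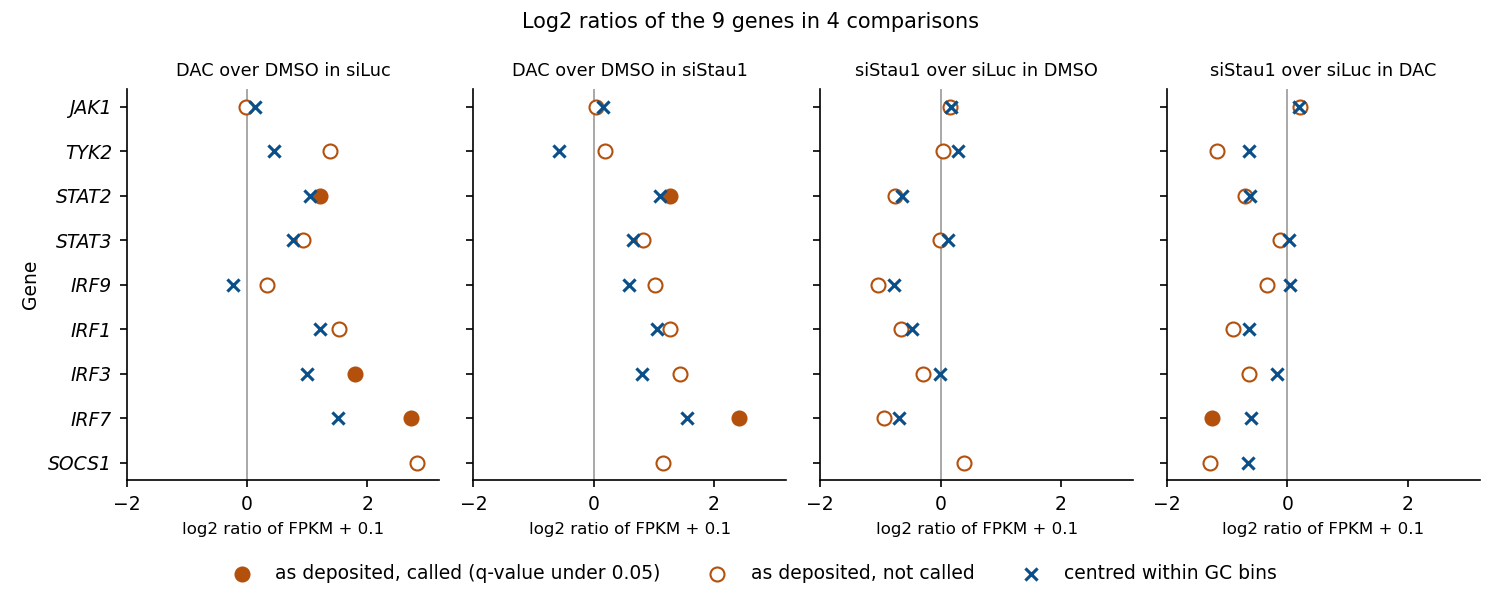
Log2 ratio of FPKM + 0.1 (horizontal axis) of each of the 9 genes (vertical axis) in DAC over DMSO in siLuc and in siStau1, and in siStau1 over siLuc in DMSO and in DAC. Filled circles are called in the authors' deposited table (q-value under 0.05), open circles are not, and crosses give the ratio minus the median of genes with like GC content. Filled circles stand at 2.72 and 2.41 for IRF7 and at 1.22 and 1.27 for STAT2 in the DAC comparisons.

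The knockdown was then compared with the control siRNA in DMSO, which asks whether the factors differ between the siRNAs without the drug. The authors' deposited table calls 0 of the 9 genes, where Cuffdiff called 0.799% of 15893 genes. At an unadjusted p under 0.05 it holds 684 of these 15893 genes, of which 1 is a member, STAT2 (p = 0.04595 in the authors' deposited table). Adjusted within this comparison alone, the same p-value gives STAT2 a q of 0.9999. STAT2 stood at 22.6 FPKM in siLuc DMSO and 13.3 in siStau1 DMSO, a log2 ratio of -0.76. The ISGF3 partner IRF9 stood at 62.1 and 30.2 FPKM, a log2 ratio of -1.04 with q = 0.681 in the authors' deposited table, the lowest ratio of the 9. For IRF7 it was -0.94 and for IRF1 -0.65, both without a call. The remaining members lay between -0.29 for IRF3 and 0.39 for SOCS1, with JAK1, TYK2 and STAT3 at 0.16, 0.04 and -0.01. The median of the 9 was -0.29, against -0.02 over all genes tested.

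Under DAC the knockdown comparison gave 1 call among the 9 genes, where the authors' deposited table calls 0.904% of 17263 genes. IRF7 fell, from 78.5 FPKM in siLuc DAC to 32.9 in siStau1 DAC, a log2 ratio of -1.25 with q = 0.00825 in the authors' deposited table. Adjusted within this comparison alone, the same p-value gives IRF7 a q of 0.189 and ends the call. TYK2 stood at 29.6 and 13.1 FPKM, a log2 ratio of -1.17 with q = 0.112 in the authors' deposited table. SOCS1 had -1.29, IRF1 -0.91, STAT2 -0.71, IRF3 -0.64 and IRF9 -0.34, all without a call. STAT3 and JAK1 stood at -0.12 and 0.21. The median of the 9 was -0.71, against -0.14 over all genes tested, and the median of genes with at least 1 FPKM was itself -0.11.

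A last comparison set siStau1 DAC against siLuc DMSO, and was added after the files were seen. IRF7 rose, with 32.9 against 11.8 FPKM, a log2 ratio of 1.47 and q = 0.0109 in the authors' deposited table. It was the 1 member called, where 4.98% of genes were called. IRF3 (1.15), SOCS1 (1.54) and STAT3 (0.81) had log2 ratios above 0 without a call, and IRF9 was at -0.01, since its level was 62.1 FPKM in one group and 61.7 in the other. All 5 comparisons reuse the same 4 group values, so they are not independent of each other.

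Ratios moved with the GC content of transcripts across all genes, and the members differ in it. The longest transcript held 69.1% GC in SOCS1, 66.8% in IRF7, 61.3% in TYK2, 59.0% in IRF3, 55.4% in IRF9, 52.6% in IRF1, 50.4% in STAT3, 50.2% in STAT2 and 46.2% in JAK1. Over 20 bins of protein-coding genes by GC content, the median DAC log2 ratio in siLuc ran from -0.95 in the bin around 35.7% GC to 1.20 in the bin around 65.5%. It ran from -0.72 to 0.86 in siStau1.

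IRF7 stood 1.52 above the median of its GC bin in siLuc and 1.55 above it in siStau1. STAT2, of middling GC content, kept 1.06 and 1.10, and IRF3 kept 1.00 and 0.81. IRF1 kept 1.22 and 1.05. These genes were thus above the median of genes of like GC content in both arms. TYK2 stood 0.46 above its bin in siLuc and at -0.58 in siStau1, and IRF9 at -0.22 and 0.59, so their signs turned in 1 arm. In the knockdown comparison under DAC, the GC bin of IRF7 had a median of -0.64, and IRF7 stood at -0.61 relative to it. IRF1, TYK2, SOCS1 and STAT2 stood between -0.65 and -0.63 there, and STAT3 and IRF9 at 0.04 each. How far GC content bears on the authors' calls was not tested.

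**Figure D3:**
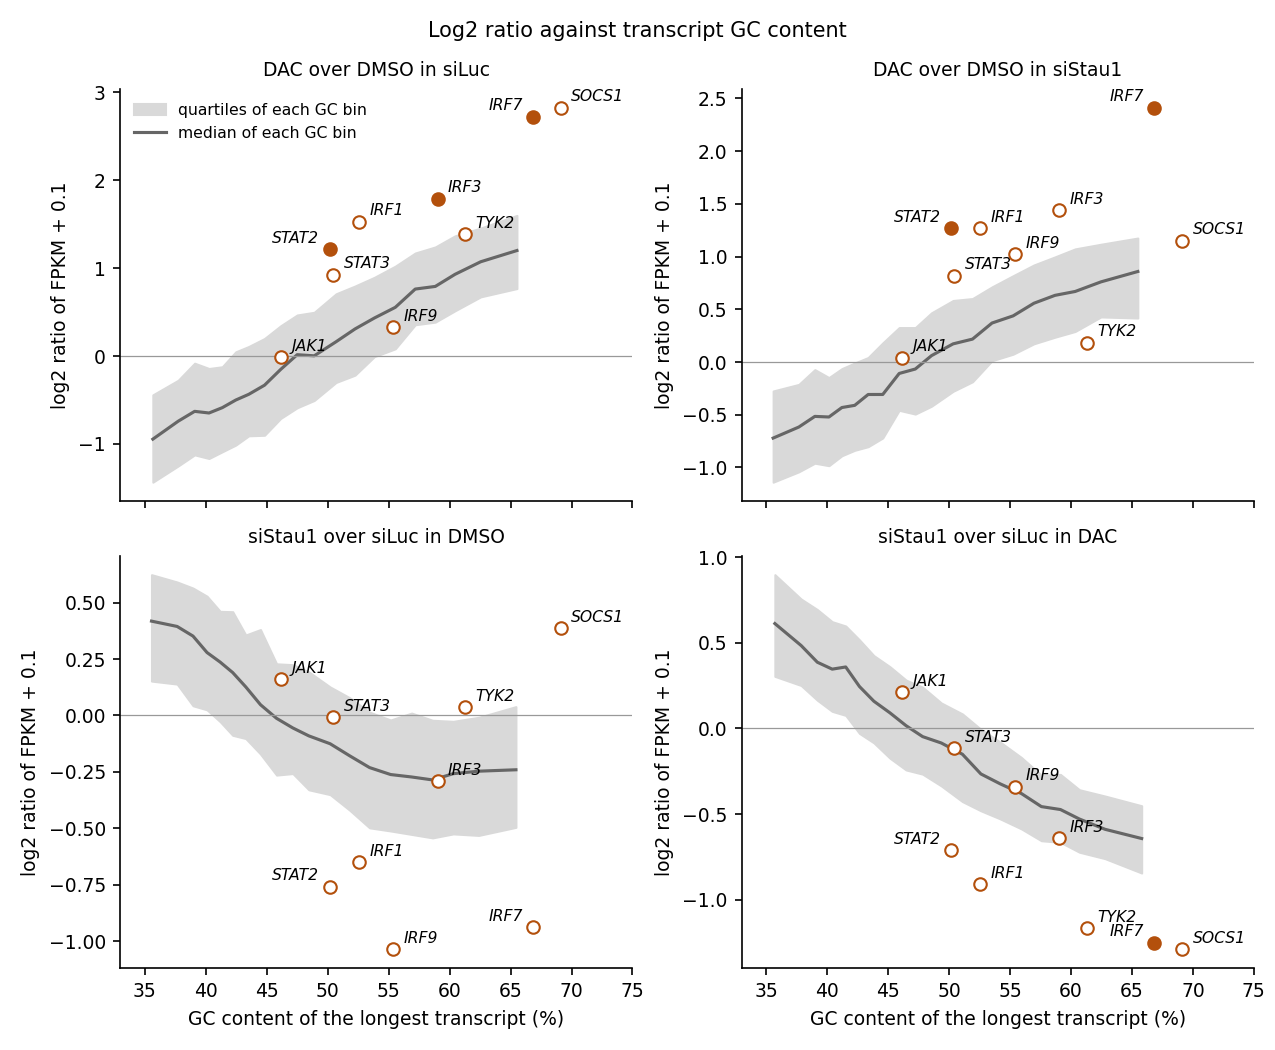
Log2 ratio of FPKM + 0.1 (vertical axes, scaled per panel) against the GC content of the longest transcript in percent (horizontal axes) in DAC over DMSO in siLuc and in siStau1, and in siStau1 over siLuc in DMSO and in DAC. The line and band are the median and quartiles of 20 bins of protein-coding genes, filled circles are members called in the authors' deposited table and open circles the other members. In siLuc the bins run from -0.95 to 1.20, and IRF7 at 2.72 lies above the last of them.

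Some of these genes share their place in the genome with others, and whether the counting used strand is not stated. IRF9 shares 48.4% of its exon bases with AL136295.5 on the same strand, a gene at 0.476, 1.47, 0.399 and 1.13 FPKM. IRF3 shares 19.3% with BCL2L12 on the other strand, which stood at 23.6, 56.0, 19.1 and 36.2 FPKM and was not called in either DAC comparison. IRF1 shares 22.0% with AC116366.3 and C5orf56 on the other strand, which did not exceed 2.32 FPKM. The deposited rows of IRF1 and SOCS1 also give loci of 253637 and 277627 bases that reach over 10 and 14 annotated genes, and those of JAK1 and IRF9 give loci of 221410 and 24041 bases over 4 and 6 genes. JAK1 shares 0.063% of its exon bases with RAVER2 on the other strand. The values of these 5 members are therefore uncertain to an extent that was not tested.

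For the members called in at least 1 comparison, the genes of nearest profile were sought among 10686 protein-coding genes, by the distance of their centred log2 levels over the 4 groups. Nearest to STAT2 were DNAJB2 (distance 0.036), SHARPIN (0.041) and CCDC107 (0.052). SHARPIN, for example, stood at 12.4, 29.1, 7.12 and 18.0 FPKM, against 22.6, 52.8, 13.3 and 32.2 for STAT2. Nearest to IRF3 were FASN (0.056), TP53I13 (0.057) and SCAF1 (0.072). Nearest to IRF7 were GADD45B (0.16), LAMB3 (0.22) and CHAC1 (0.26), at a larger distance than for the other members. Each distance rests on 4 values, so many genes can lie near by.

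The rest of the pathway was read from lists of genes grouped by role, beginning with the closest relatives. Their counts are read against the shares of all tested genes called with DAC, 13.5% in siLuc and 7.46% in siStau1 in either direction, and with the knockdown, 0.799% in DMSO and 0.904% under DAC. Centring within GC bins, applied to these lists after the data were seen, turned the sign of 0 called ratios but made many of them smaller. With DAC in siLuc, 13 of the 21 called ratios that have such a value shrank by over 1.5 times, with DAC in siStau1 2 of 19, and with the knockdown 0 of 16 in DMSO and 2 of 8 under DAC. Of 7 other JAK and STAT genes, 1 rose with DAC in siLuc and in siStau1, where 8.71% and 4.56% of all tested genes were called higher, none fell, and none was called for the knockdown. A count of 1 in 7 is no result about the list. It was STAT5A, listed at 0 in both DMSO groups and at 0.926 and 0.706 FPKM with DAC, with q = 0.00162 for each in the authors' deposited table. Of 8 other IRF genes and IRF-binding proteins, 6 were tested in each comparison. IRF2BP1, a corepressor that binds IRF2, rose with DAC in siLuc from 4.59 to 14.1 FPKM (q = 0.00917 in the authors' deposited table). None was called elsewhere, and a count of 1 in 6 is no result about the list. Within GC bins the log2 ratio of IRF2BP1 moved from 1.60 to 0.40.

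Among 16 other negative regulators, 1 rose and 1 fell in each DAC comparison, a share near that of all tested genes, so the named genes stand for themselves and not for the list. SOCS3, the feedback inhibitor of STAT3 signalling, rose in siLuc from 6.77 to 18.2 FPKM, with q = 0.00632 in the authors' deposited table. Within GC bins the log2 ratio of SOCS3 moved from 1.41 to 0.48. PTPN2, a phosphatase of JAK and STAT proteins, fell from 41.2 to 18.2 FPKM in siLuc, and in siStau1 from 57.1 to 27.8, with q = 0.0201 and 0.0474 in the authors' deposited table. The log2 ratios of PTPN2, -1.18 and -1.03, were -0.53 and -0.51 within GC bins. USP18, which blocks the type I interferon receptor, rose in siStau1 from 6.78 to 31.4 FPKM and fell with the knockdown in DMSO from 28.3 to 6.78 (q = 0.00162 for both in the authors' deposited table). None was called for the knockdown under DAC.

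Of 10 cytokine receptor chains, IFNGR1, the ligand-binding chain for interferon gamma, was the 1 called. It fell with DAC in siLuc from 14.5 to 4.88 FPKM (q = 0.0194 in the authors' deposited table). It was higher in siStau1 DAC, at 14.3, than in siLuc DAC (q = 0.0214 there). The latter call has p = 0.0012 in the authors' deposited table, above the 0.00035 of IRF7. It likewise ends when adjusted within that comparison alone, where IRF7 has a q of 0.189. The fall of IFNGR1 in siLuc, -1.55 on the log2 scale, was -0.90 within GC bins. A count of 1 in 10 is no result about the list. Of 13 activators of IRF3 and IRF7, 2 rose and 1 fell with DAC in siLuc. The adaptor TICAM1 rose from 1.59 to 8.11 FPKM and the adaptor MYD88 from 4.68 to 13.2, while TANK, a scaffold of the kinase TBK1, fell from 71.0 to 16.3 (q = 0.00415, 0.0234 and 0.0272 in the authors' deposited table). Within GC bins the log2 ratios of TICAM1 and TANK moved from 2.28 to 1.21 and from -2.12 to -1.37. In siStau1 the 2 called were the RNA sensors DDX58, from 20.2 to 53.5 FPKM, and IFIH1, from 12.9 to 29.1. DDX58 was also the 1 activator that fell with the knockdown in DMSO, from 41.5 to 20.2 FPKM with q = 0.0279 in the authors' deposited table.

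The 18 target genes of ISGF3, the longest list, had the largest number of called genes in each of the 4 comparisons. By share of tested genes, the list linked to IRF1 lay higher with DAC in siLuc, with 6 called higher and 1 lower of 15. With DAC, 8 of the 18 ISGF3 targets rose in siLuc and 12 in siStau1, and none fell. Of all tested genes, 8.71% and 4.56% were called higher there. With the knockdown, 13 of the targets fell in DMSO and 7 under DAC, and none rose, where 0.799% and 0.904% of all tested genes were called. The median log2 ratios of the 18 targets were 1.06, 2.76, -2.50 and -0.89 in that order. With DAC in siLuc, uncalled ratios lay below 0 for IFIT1 (-1.31), IFI44 (-1.28) and DDX60 (-0.35), and those of the other targets above 0. IFI44 stood at 46.1 and 18.9 FPKM in siLuc DMSO and siLuc DAC, with q = 0.0512 in the authors' deposited table. Within GC bins these ratios were -0.81, -0.65 and 0.28. IFIT1, IFI44 and DDX60 were named after their values were seen. IFITM1, which blocks virus entry, stood at 191, 562, 8.80 and 239 FPKM, highest in siLuc DAC and lowest in siStau1 DMSO, and was called in all 4 comparisons. IFI27 stood at 402, 1138, 37.2 and 592 FPKM and OASL at 51.2, 239, 7.20 and 84.0, both called in all 4. For the knockdown under DAC, IFITM1 and IFI27 had p = 0.00185 and 0.00375 in the authors' deposited table, above the 0.00035 of IRF7. Adjusted within that comparison alone, IRF7 has a q of 0.189, so the calls of IFITM1 and IFI27 end there too. Fewer of the 7 calls under DAC would then remain. The same holds for the 13 calls in DMSO, where 127 of 15893 genes were called. There DDX60 and IFIT1 had p = 0.00065 and 0.0027 in the authors' deposited table. Both calls end when adjusted within that comparison alone, so fewer of the 13 would remain. MX1, a GTPase that traps viral particles, stood at 3.74, 266, 2.08 and 118 FPKM and rose with DAC in both arms. It fell with the knockdown under DAC, with q = 0.00525 in the authors' deposited table. OAS2, at 1.61, 15.8, 0.0735 and 10.7 FPKM, also rose with DAC in both arms. IFI44L, at 17.2, 21.5, 1.19 and 11.1 FPKM, was not called with DAC in siLuc (q = 0.814 in the authors' deposited table), rose with DAC in siStau1 and fell with the knockdown in DMSO. In the knockdown comparison in DMSO the STAT2 and IRF9 ratios of -0.76 and -1.04 were thus smaller in size than the median of these targets, and that difference was not tested.

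Of the 17 genes linked to IRF1, 15, 14, 12 and 15 were tested in the 4 comparisons. With DAC, 6 rose and 1 fell in siLuc, and 3 rose in siStau1. TAP1, a peptide transporter of antigen presentation, rose from 39.5 to 126 FPKM in siLuc, and in siStau1 from 15.7 to 66.7, and fell with the knockdown in DMSO from 39.5 to 15.7 (q = 0.00162, 0.00162 and 0.0201 in the authors' deposited table). It was the 1 gene of the list that fell with the knockdown, and none was called for the knockdown under DAC. Its call for the knockdown in DMSO has p = 0.0011 in the authors' deposited table. That call ends when adjusted within that comparison alone. The guanylate-binding protein GBP2 rose from 0.707 to 8.51 FPKM in siLuc, and in siStau1 from 0.369 to 5.28. GBP1 rose from 0.358 to 1.67 FPKM and PSMB8, an immunoproteasome subunit, from 0.823 to 27.4 in siLuc. GBP4 and CASP1 were listed at 0 in siLuc DMSO and had 0.633 and 0.784 FPKM in siLuc DAC. CASP1 also rose in siStau1, from 0 to 1.27 FPKM, with q = 0.00162 in the authors' deposited table. B2M, named after its values were seen, was the 1 that fell, from 1442 to 599 FPKM in siLuc. In siLuc the log2 ratio of TAP1 moved from 1.67 to 0.91 within GC bins and that of B2M from -1.27 to -0.62.

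Of 12 genes linked to STAT3, 4 rose with DAC in siLuc and 3 in siStau1, none fell, and none was called for the knockdown. The cyclin CCND1 rose from 69.6 to 189 FPKM in siLuc, and in siStau1 from 63.2 to 168, and the protease inhibitor TIMP1 from 92.8 to 302 and from 63.6 to 211 (q = 0.00162 for each in the authors' deposited table). BCL2L1, which restrains apoptosis, rose from 62.1 to 144 and from 27.7 to 109 FPKM. Within GC bins the log2 ratio of BCL2L1 in siLuc moved from 1.21 to 0.45, and that of TIMP1 from 1.70 to 0.94 in siLuc and from 1.73 to 1.09 in siStau1. FOS, an immediate early gene, rose in siLuc from 5.50 to 37.5 FPKM, and stood at 4.23 and 17.1 in siStau1 without a call.

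**Figure D4:**
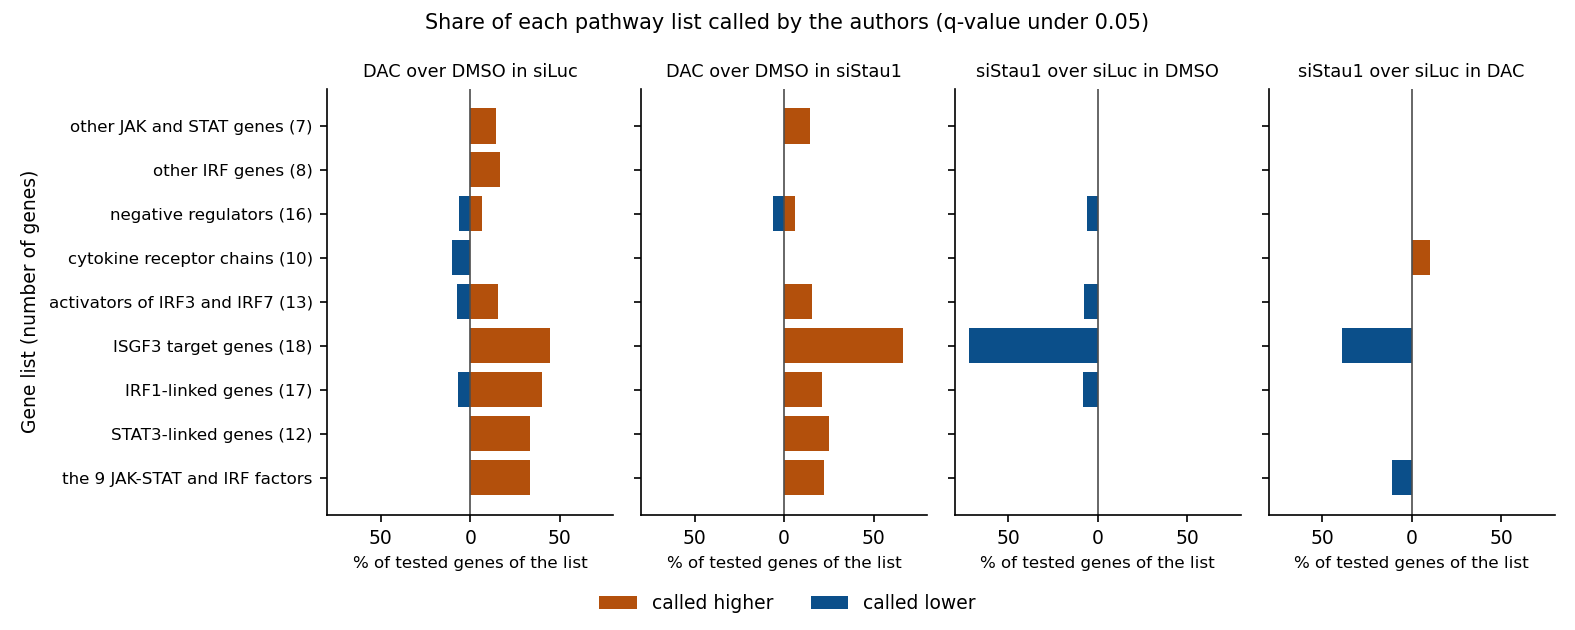
Share of the tested genes of each list, in percent (horizontal axes), that the authors' deposited table calls higher (to the right) or lower (to the left) in DAC over DMSO in siLuc and in siStau1, and in siStau1 over siLuc in DMSO and in DAC. The ISGF3 target genes have the longest bars, with 8 and 12 of 18 called higher with DAC and 13 and 7 called lower with the knockdown, and the 9 factors are the last row.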

How the data were processed

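Total RNA of HCT116 cells was sequenced in 4 groups of 2 libraries. Per the submitters' processing notes, reads were handled with bcl2fastq 2.20, HISAT2 2.1.0, Cuffdiff 2.2.1 and Cuffnorm 2.2.1 on hg38. Ribosomal RNA was depleted and a stranded kit was used, per the labels' protocols, while how reads were assigned to strands and to overlapping genes is not given in the sources used here. The table the authors deposited gives, per the file headers, 1 FPKM value per gene and group. It also holds the authors' p-value and q-value for 6 pairs of groups, and the deposited q-value equals a Benjamini-Hochberg adjustment across 102180 tests, all pairs together. No value per library was used, because the table gives none. The planned limma fit was therefore replaced by the authors' calls at q under 0.05, and depth is unknown.

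Log2 ratios were computed from FPKM + 0.1 with Python 3.11.15, pandas 2.3.3 and numpy 2.4.6. Positions, exon overlaps and the GC content of the longest transcript per gene came from GENCODE release 29, which held all 58699 genes. For GC centring, the median of each of 20 bins of protein-coding genes (at least 1 FPKM in each group compared) was subtracted. Only the GC centring and the Benjamini-Hochberg adjustment were tested on simulated data. Promoter windows are from RefSeq. Alternatives were other q limits and adjustments, pseudocounts of 0.01 and 1, and other scalings.

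The members, lists and rules were chosen with earlier results of these data known, so they give no independent support. All 9 members are named. Of each list, genes called in at least 1 of 4 comparisons are named, up to 6 by the largest called log2 ratio, and for each called member the 3 nearest profiles. B2M, IFIT1, IFI44, DDX60 and the markers fall outside this rule or were added. A gene of the lists is not reported here. The 3 libraries of RNA bound by the J2 antibody hold repeat elements and were not used.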

Additional observations from a re-analysis of the deposited data

How the results depend on the processing

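No paired analysis was possible because the table holds 1 value per group and none per library, and for the same reason no fit without single replicates and no replicate block was run. With the authors' p-values adjusted within each comparison alone, the members called numbered 6 in place of 3 for DAC over DMSO in siLuc and 0 in place of 1 for the knockdown under DAC. At q under 0.01 they numbered 0 in place of 2 for DAC in siStau1, and 0 in place of 1 for siStau1 DAC over siLuc DMSO, a comparison chosen after seeing the data. The median log2 ratio of the members became 0.88 (from 1.39) for DAC in siLuc and 0.73 (from 1.15) for DAC in siStau1 after centring within GC bins, which leaves out SOCS1. Pseudocounts of 0.01 and 1 gave 1.25 and 1.00 for DAC in siStau1. For the knockdown under DAC the median of -0.71 became -0.60 after centring on the median of all genes, -0.57 after scaling to protein-coding genes and -0.61 within GC bins. The median difference between the DAC ratios of both arms became -0.054 (from -0.26) within GC bins. Of 177 alternative ratios of single members, 168 kept their sign, and the 9 that did not belong to JAK1, TYK2, STAT3 and IRF9, 0 of them to a called ratio. The difference between the DAC ratios of both arms also changed sign within GC bins for IRF7, from -0.31 to 0.03. Apart from the leaving out of SOCS1, the cause of these shifts was not tested. The nearest profiles were partly others with a pseudocount of 1. Low values such as those of SOCS1, GBP4 and STAT5A are the least certain, and no depth is known to set their error.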
